A study of Mus musculus with 10 samples.

Results

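The nuclear genes of the oxidative phosphorylation subunits were followed in neural stem and progenitor cells (NSPCs) taken from mouse brain. They were chosen by symbol: the Nduf a, b, c, s and v families of complex I, Sdha to Sdhd of complex II, the Uqcr genes of complex III, the Cox4 to Cox8 families of complex IV and the Atp5 genes of complex V, without pseudogenes. This gave 90 of the 57180 genes in the table, under 89 symbols, since Atp5po is listed under a second ID. Complex I has 39 of them, complex II 4, complex III 8, complex IV 20 and complex V 19, with Ndufa4 and Ndufa4l2 counted with complex IV.

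RNA sequencing of poly(A) RNA covered 3 Mina53-KO and 3 WT libraries. CUT&Tag, in which a transposase tethered to an antibody cuts nearby chromatin, covered 2 Mina53-KO and 2 WT libraries. Mina53 is an older name of Riox2, a JmjC-domain oxygenase, and the title of the series names a demethylase activity of it on the histone mark H4R3me2a. All cells are labelled as brain NSPCs with no treatment. The labels do not give the brain region, the age or strain of the mice, how the KO was made, the antibody, or whether each library had its own animal. The p-values therefore measure spread among the sequenced libraries, which may be technical. Riox2 (ENSMUSG00000022724) had 3.26, 3.78 and 3.70 CPM in KO and 20.0, 17.2 and 18.5 CPM in WT, CPM being the count scaled to library size, and was called lower in KO (log2 fold change -2.37 (SE 0.15); edgeR adjusted p = 0.000324).

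Oxidative phosphorylation is the final stage of respiration, in the inner mitochondrial membrane. Complexes I and II pass electrons from NADH and succinate to ubiquinone, complex III passes them on to cytochrome c, and complex IV passes them to oxygen. Complexes I, III and IV pump protons, and complex V, the ATP synthase, lets them back in to make ATP. Apart from complex II, each complex combines nuclear subunits with subunits encoded by mitochondrial DNA. Neural stem cells are known for strong glycolysis, and neurons for a high reliance on respiration.

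RNA libraries held 19923010 to 25939376 counts, of which the subunit genes took 1.35% to 1.58%. Counts from mitochondrial DNA took 2.68%, 2.65% and 4.64% in KO 1, 2 and 3, and 2.31%, 5.71% and 3.52% in WT 1, 2 and 3. Parted at 3%, KO 3, WT 2 and WT 3 have a higher mitochondrial share and KO 1, KO 2 and WT 1 a lower one, so each kind holds libraries of both genotypes, in unequal numbers. All 12 listed stem cell and radial glia markers passed the count filter and summed to 7710 to 8721 CPM in KO and 7237 to 7531 CPM in WT. Of these, Vim was called higher in KO and Slc1a3 lower. Markers of other cells also moved, where edgeR called 3.43% of all 15298 tested genes. Called higher in KO were 3 of 7 tested progenitor and neuroblast genes (Btg2, Cd24a, Insm1) and 3 of 9 neuron genes (Nefm, Nefl, Gap43). Called lower were 4 of 9 astrocyte genes (S100b, Sparcl1, Agt, Aldoc). Over the tested neuron genes the log2 fold changes ran from -0.59 to 1.83. Of the astrocyte genes not called, Gfap had 0.36 (SE 0.14) and Gja1 0.03 (SE 0.11), while Slc1a2, Aqp4 and Aldh1l1 were below 0. Progenitor markers summed to 632.9 to 688.5 CPM in KO and 488.1 to 499.7 CPM in WT, neuron markers to 936.2 to 1139 CPM in KO and 669 to 856.4 CPM in WT, and astrocyte markers to 2450 to 2804 CPM in KO and 3158 to 3903 CPM in WT. Among other lists, 0 of 7 tested oligodendrocyte lineage genes and 0 of 1 microglia gene were called, Flt1 of 3 endothelial genes was called higher, and of 4 fibroblast genes Twist1 was called higher and Foxc1 lower. Cx3cr1 of microglia, Cdh5 and Cldn5 of endothelium and the globin genes Hbb-bs and Hbb-bt had no counts in any library. In bulk RNA, fewer cells of a type and less RNA per cell cannot be told apart, and the part of these shifts in the values of the subunit genes was not tested.

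Several subunit promoters carry short DNA words bound by factors known to drive respiratory genes. RefSeq start windows (GRCm38.p6, 250 bases before to 50 after the start) were matched for 69 of the 89 symbols, 74 windows in all. The words searched, on both strands, were GCATGCGC of NRF1, CCGGAAG of ETS factors such as GABP, AAGATGGC of YY1 and AAGGTCA of estrogen-related receptors. No different words overlapped in a subunit window. The NRF1 word lay in 13.5% of subunit windows and 2.71% of all 32851 windows, and the ETS word in 21.6% of subunit windows and 8.86% of all. The YY1 word lay in 13.5% of subunit windows and 2.75% of all, and the receptor word in 10.8% of subunit windows and 4.72% of all. At least 1 word lay in 34 of 74 subunit windows (46.0%), against 17.6% of all windows. A match describes letters and not a bound site. The windows printed run from 160 bases before to 30 after the start. They were taken from each complex, among genes whose RNA or CUT&Tag values follow. Each window printed holds an NRF1 or ETS word, so they are not typical of subunit windows, where 34 of 74 hold any word searched. Capitals mark the NRF1 word or its reverse complement GCGCATGC, and the ETS word or its reverse complement CTTCCGG. They lie at chr19:3912745-3912934 (minus strand, Ndufs8), chr4:140961111-140961300 (plus strand, Sdhb), chr10:80406792-80406981 (minus strand, Uqcr11), chr5:115348929-115349118 (minus strand, Cox6a1), chr19:7217587-7217776 (minus strand, Cox8a) and chr15:102671018-102671207 (minus strand, Atp5mc2).
Ndufs8: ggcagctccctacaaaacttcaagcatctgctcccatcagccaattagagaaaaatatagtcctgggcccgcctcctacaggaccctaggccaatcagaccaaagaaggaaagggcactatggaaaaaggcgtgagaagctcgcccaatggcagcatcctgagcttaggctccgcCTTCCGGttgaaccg
Sdhb: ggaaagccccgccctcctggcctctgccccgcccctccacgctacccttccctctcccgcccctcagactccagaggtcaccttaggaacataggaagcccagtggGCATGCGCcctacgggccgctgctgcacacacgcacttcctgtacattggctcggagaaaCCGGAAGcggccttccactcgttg
Uqcr11: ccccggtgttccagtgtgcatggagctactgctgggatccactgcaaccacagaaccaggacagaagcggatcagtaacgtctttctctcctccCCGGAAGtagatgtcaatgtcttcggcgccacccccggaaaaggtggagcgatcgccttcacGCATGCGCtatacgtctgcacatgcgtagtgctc
Cox6a1: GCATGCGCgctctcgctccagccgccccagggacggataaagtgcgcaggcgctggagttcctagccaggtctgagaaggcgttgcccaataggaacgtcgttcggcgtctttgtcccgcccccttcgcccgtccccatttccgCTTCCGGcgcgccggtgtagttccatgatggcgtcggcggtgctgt
Cox8a: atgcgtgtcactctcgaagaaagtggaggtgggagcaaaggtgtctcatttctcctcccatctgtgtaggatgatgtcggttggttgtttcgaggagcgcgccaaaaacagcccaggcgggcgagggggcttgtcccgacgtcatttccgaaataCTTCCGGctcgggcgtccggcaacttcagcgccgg
Atp5mc2: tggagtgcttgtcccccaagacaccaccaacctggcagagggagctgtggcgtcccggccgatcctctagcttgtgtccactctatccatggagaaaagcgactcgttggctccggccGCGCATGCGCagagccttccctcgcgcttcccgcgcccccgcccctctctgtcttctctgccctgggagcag
Sdhb, Uqcr11 and Cox6a1 have both words. In Cox8a an ETS word spans the start itself, at bases -5 to 2, and in Atp5mc2 the NRF1 word and its reverse complement overlap, from base -42 to base -33.

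Per kb of gene length, the highest level was that of Atp5f1b, the catalytic beta subunit of ATP synthase, with 1312 ± 38.8 CPM per kb in KO and 1365 ± 45.6 CPM per kb in WT (SD, n = 3 each, here and below). Next came Atp5f1a, the alpha subunit, with 682 ± 26.2 CPM per kb in KO and 728 ± 17.8 CPM per kb in WT, below Atp5f1b by far more than either spread. Atp5mc3, a gene of the rotating c ring, had 445 ± 29.9 CPM per kb in KO and 456 ± 60.6 CPM per kb in WT. Cox4i1, a regulatory subunit of complex IV, had 433 ± 79.7 CPM per kb in KO and 412 ± 52.8 CPM per kb in WT, and Ndufa4 had 369 ± 18.2 CPM per kb in KO and 377 ± 70.3 CPM per kb in WT. Cox4i1 overlapped both of these in KO and in WT libraries, while Atp5mc3 lay above Ndufa4 in each of the 6 libraries, with groups of values that overlapped in WT and not in KO. Cox8a, a small complex IV subunit, had 348 ± 73.2 CPM per kb in KO and 324 ± 56.9 CPM per kb in WT. In complex I, the accessory subunit Ndufc2 had 240.3 ± 40.8 CPM per kb in KO and 228 ± 30.7 CPM per kb in WT and Ndufa12 150.2 ± 25.0 CPM per kb in KO and 161 ± 18.1 CPM per kb in WT. In complex III, Uqcrh, the hinge subunit, had 245 ± 38.5 CPM per kb in KO and 228 ± 17.9 CPM per kb in WT, Uqcrc1 239.6 ± 33.7 CPM per kb in KO and 229 ± 24.6 CPM per kb in WT and Uqcrq 207 ± 59.8 CPM per kb in KO and 182 ± 42.4 CPM per kb in WT. In complex II, Sdha, the flavoprotein, had 228 ± 3.22 CPM per kb in KO and 237 ± 1.69 CPM per kb in WT, Sdhb 139.5 ± 10.6 CPM per kb in KO and 141 ± 14.3 CPM per kb in WT and Sdhd 129 ± 9.34 CPM per kb in KO and 140.5 ± 10.2 CPM per kb in WT. The order of the 3 complex III genes is not firm, since their spreads overlap.

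**Figure D1:**
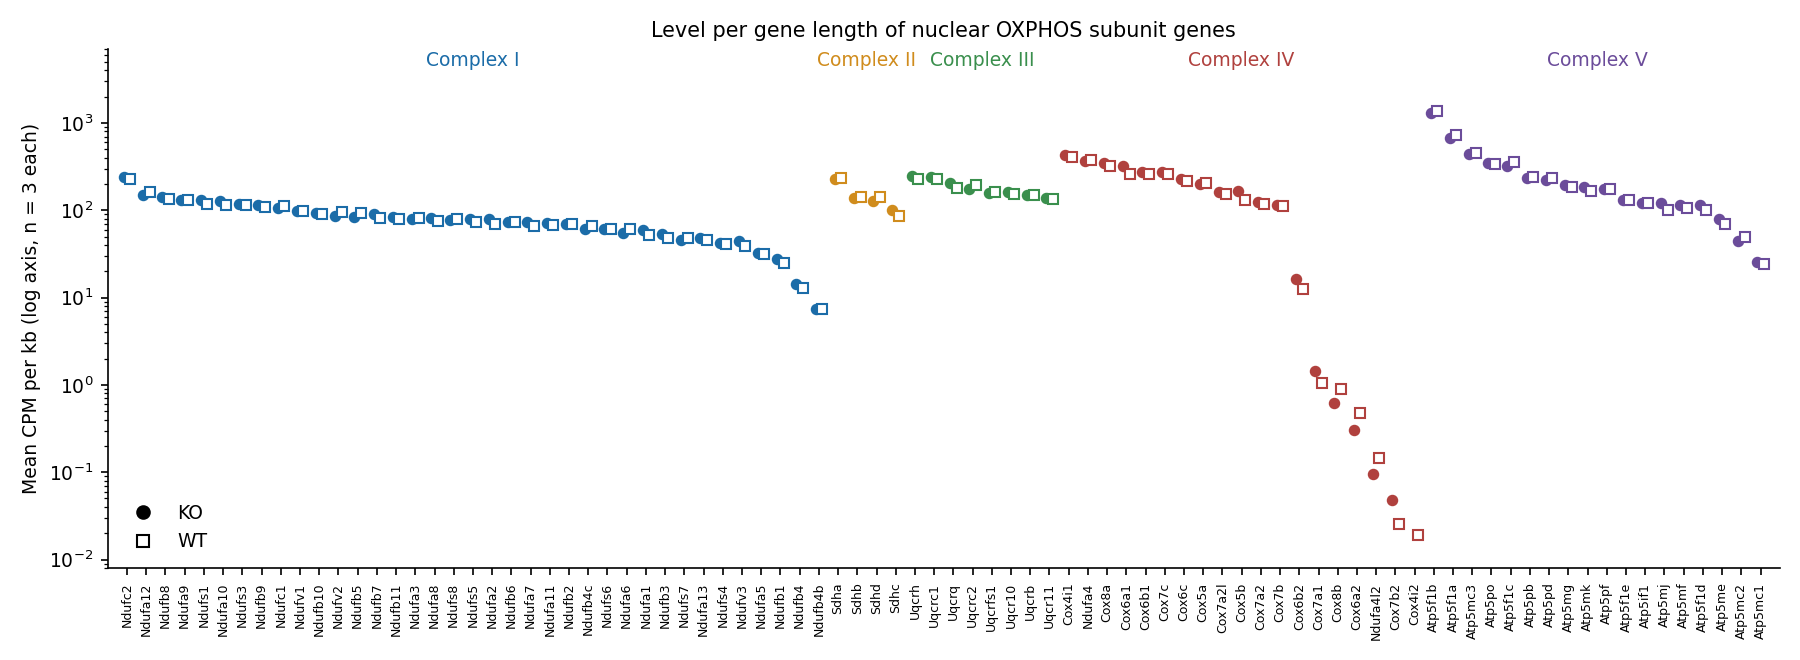
Mean CPM per kb (log axis) of subunit genes with counts, in KO (circles) and WT (squares) libraries, n = 3 each, ordered within each complex. KO and WT symbols lie close together for most genes, Atp5f1b is highest, and tissue-restricted isoforms of complex IV form the low tail; a group at 0 has no symbol.

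Complex IV has isoform pairs, and the broadly expressed member had the higher level in each. Cox6a1 had 324 ± 96.6 CPM per kb in KO and 263 ± 55.4 CPM per kb in WT, while Cox6a2, the heart and muscle form, had 5, 7 and 2 counts in KO and 6, 7 and 11 in WT. Cox7a2 had 126 ± 13.0 CPM per kb in KO and 117 ± 23.0 CPM per kb in WT, while Cox7a1, the heart and muscle form, had 1.43 ± 0.427 CPM per kb in KO and 1.06 ± 0.329 CPM per kb in WT. Cox6b1 had 278 ± 46.2 CPM per kb in KO and 261 ± 22.7 CPM per kb in WT, while Cox6b2, the testis form, had 16.4 ± 3.16 CPM per kb in KO and 12.4 ± 1.98 CPM per kb in WT. Beside Cox4i1, Cox4i2, the lung form, had no count in KO and 1 count, in WT 1. Beside Cox7b, with 116 ± 14.2 CPM per kb in KO and 112 ± 15.2 CPM per kb in WT, Cox7b2 had 0, 0 and 2 counts in KO and 0, 1 and 0 in WT. Beside Cox8a, Cox8b had 4, 5 and 7 counts in KO and 8, 4 and 12 in WT and Cox8c had none. Cox7a2l, a supercomplex factor, had 161 ± 7.83 CPM per kb in KO and 153 ± 13.0 CPM per kb in WT. Ndufa4l2, a HIF-induced paralogue of Ndufa4, had 3, 1 and 2 counts in KO and 4, 3 and 3 in WT. These rare forms apart from Cox7a1 and Cox6b2, with Ndufb11b and the second Atp5po ID at 0 in all libraries, were the 8 members below the count filter, which left 82 tested. The 8 listed muscle genes summed to 2.61 to 3.99 CPM in KO and 4.64 to 5.36 CPM in WT. The c ring is encoded by 3 genes for the same mature protein, so reads can be split among them: besides Atp5mc3, Atp5mc2 had 44.1 ± 10.7 CPM per kb in KO and 49.4 ± 11.1 CPM per kb in WT and Atp5mc1 25.3 ± 4.61 CPM per kb in KO and 24.1 ± 1.80 CPM per kb in WT, the last over a deposited length of 4660 bases.

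No subunit gene was called different between KO and WT. Of the 82 tested, edgeR called 0 at an adjusted p under 0.05 and DESeq2 0, where edgeR called 3.43% of all 15298 tested genes. At an unadjusted p under 0.05 each tool had 1 subunit gene, where edgeR had 13.7% of all genes and DESeq2 13.6%. The log2 fold changes ran from -0.16 for Atp5mc2 to 0.43 for Cox7a1, 53 above 0 (64.6%) and 29 below, with a median of 0.06. Over all tested genes 51.1% were above 0, with a median of 0.01. The 95% interval lay within 1 log2 unit of 0 for 81 genes, Cox7a1 being the exception, and within 0.5 for 59. Changes smaller than these intervals were not detectable with 3 libraries a group. The median was -0.04 without KO 2, -0.03 without WT 3, 0.15 without KO 3, and -0.03 with the mitochondrial-share class as a covariate.

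**Figure D2:**
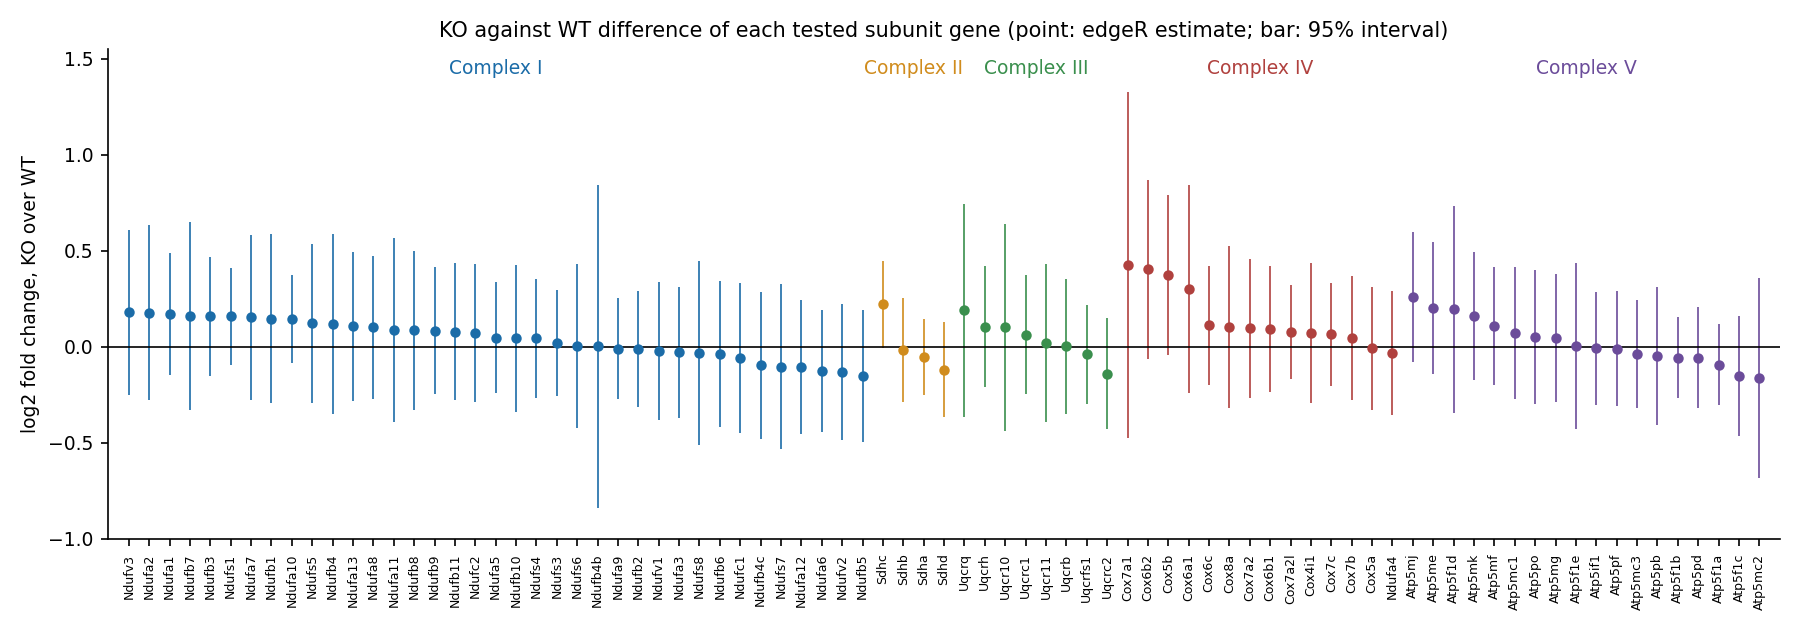
edgeR log2 fold change, KO over WT, of 81 of the 82 tested subunit genes with its 95% interval (bar), by complex. The intervals drawn all cross 0, and that of Cox7a1 is the widest.

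Summed over each complex, KO and WT libraries overlapped. Complex I summed to 3378, 3650 and 2945 CPM in KO 1, 2 and 3 and to 3303, 3254 and 2861 CPM in WT 1, 2 and 3. Complex II summed to 1304, 1349 and 1251 CPM in KO and 1320, 1324 and 1243 CPM in WT. Complex III summed to 1364, 1514 and 1250 CPM in KO and 1431, 1423 and 1265 CPM in WT. In these 3 sums KO 2 was the highest library, and KO 3 and WT 3 were the lowest of their genotypes. Complex IV summed to 1991, 2245 and 1690 CPM in KO and 1955, 1897 and 1657 CPM in WT, and complex V to 6581, 6952 and 6392 CPM in KO and 6814, 7229 and 6525 CPM in WT. The ratio of means, KO over WT, lay between 0.969 for complex V and 1.08 for complex IV.

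**Figure D3:**
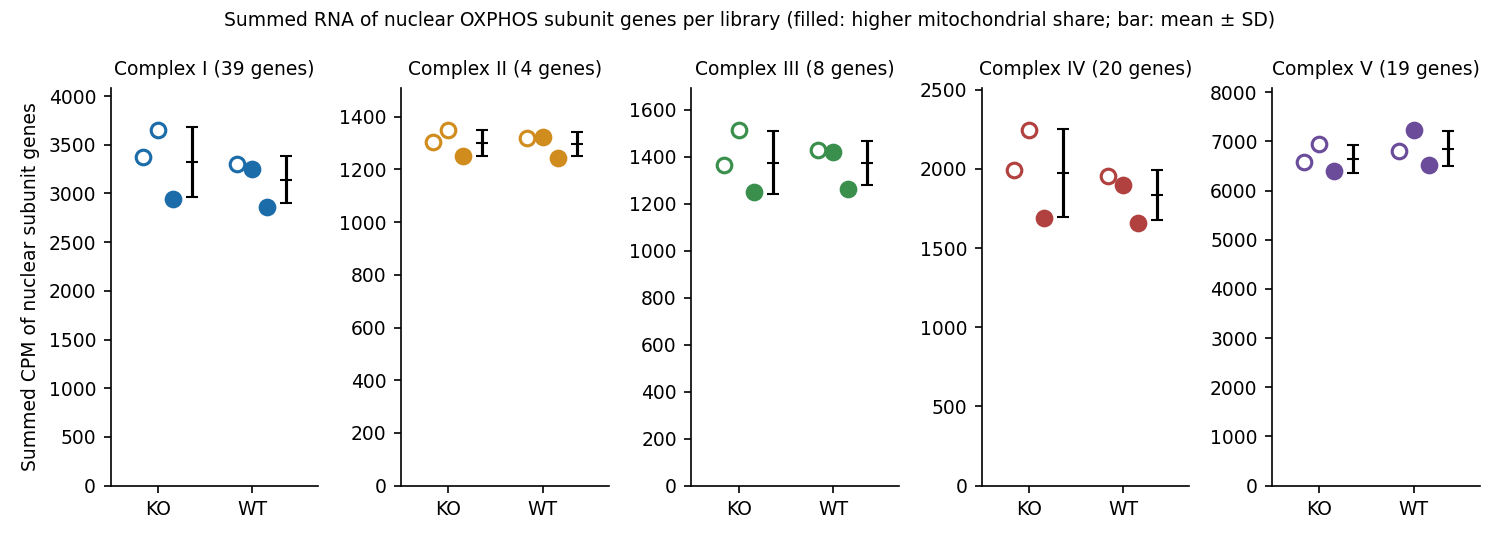
Summed CPM of the subunit genes of each complex in every KO (left) and WT (right) library; filled points are libraries with a higher mitochondrial share, open points the others, and bars mean ± SD (n = 3). KO and WT points overlap in every complex, and KO 3 and WT 3, both filled, are the lowest of their genotype in each.

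In complex I, Ndufs1, the large iron-sulfur subunit of the NADH-oxidising module, had 332, 319 and 369.9 CPM in KO and 282, 333 and 299 CPM in WT, with overlap at WT 2, and a log2 fold change of 0.16 (SE 0.11). Ndufv1, the flavin subunit that takes electrons from NADH, had 161 ± 27.7 CPM in KO and 164 ± 21.1 CPM in WT. Ndufs7 and Ndufs8, iron-sulfur subunits near ubiquinone, had log2 fold changes of -0.10 (SE 0.19) for Ndufs7 and -0.03 (SE 0.21) for Ndufs8. Toward the ends of the complex I range stood Ndufv3 at 0.18 (SE 0.19), Ndufv2 at -0.13 (SE 0.15) and Ndufb5 at -0.15 (SE 0.15). Ndufb4, Ndufb4b and Ndufb4c are close copies among which reads can be split, so their separate values are uncertain. Since no source says whether counting used strand, reads of overlapping antisense genes cannot be told apart either.

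In complex II, Sdhc, a membrane anchor, had 325, 336 and 301 CPM in KO and 291, 277 and 258 CPM in WT. Every KO library lay above every WT library, and the log2 fold change was 0.22 (SE 0.10), with an edgeR adjusted p of 0.384. Sdha (ENSMUSG00000021577), which oxidises succinate, had 664, 669.7 and 652 CPM in KO and 684, 692 and 683 CPM in WT. Every KO library lay below every WT library, by a narrow margin, with a log2 fold change of -0.05 (SE 0.09). Sdhd, the other anchor, had a log2 fold change of -0.12 (SE 0.11), and Sdhb, the iron-sulfur subunit, of -0.02 (SE 0.12). Across the 82 genes, Sdhc was the 1 gene with every KO library above every WT library, where 9.69% of all tested genes were, and Sdha and Atp5f1a were the 2 with every KO library below, where 9.26% of all tested genes were.

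In complex III, Uqcrfs1, the Rieske iron-sulfur protein, had 216 ± 20.5 CPM in KO and 222 ± 16.02 CPM in WT. Uqcrc2, a core protein, had a log2 fold change of -0.14 (SE 0.13), and the other core protein, Uqcrc1, of 0.06 (SE 0.13). Among small subunits, Uqcrq had 0.19 (SE 0.24) and Uqcrh 0.11 (SE 0.14), and Uqcr11 had 61.5, 74.4 and 48.5 CPM in KO and 67.4, 63.8 and 50.8 CPM in WT, with overlap. In complex IV, 12 of 14 tested genes (85.7%) had a fold change above 0, where 51.1% of all tested genes did. The complex IV median was 0.09, or 0.05 with the mitochondrial-share class as a covariate, and none was called. Cox7a1 had 0.43 (SE 0.39), Cox6b2 0.40 (SE 0.20) and Cox6a1 0.30 (SE 0.24), on the log2 scale. Ndufa4 and Cox5a were the 2 below 0, at -0.03 (SE 0.14) for Ndufa4 and -0.01 (SE 0.14) for Cox5a.

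In complex V, 9 genes had a fold change above 0 and 9 below. Atp5f1a had 1671, 1757 and 1630 CPM in KO and 1848, 1779 and 1766 CPM in WT, with KO 2 the nearest to WT 3 and no overlap. Its log2 fold change was -0.09 (SE 0.09), with an edgeR adjusted p of 0.825. Atp5f1b had 2483, 2598 and 2458 CPM in KO and 2570, 2716 and 2559 CPM in WT, with KO 2 above WT 3, so the groups overlapped. Atp5mj, a small membrane subunit, had 73.1, 73.5 and 73.5 CPM in KO and 53.7, 75.5 and 54.6 CPM in WT and a log2 fold change of 0.26 (SE 0.15). Its KO libraries were nearly equal and WT 2 lay slightly above them. Atp5me, another membrane subunit, had a log2 fold change of 0.20 (SE 0.15), Atp5f1c, the gamma subunit of the central stalk, of -0.15 (SE 0.14), and Atp5mc2 of -0.16 (SE 0.23).

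Many single subunit genes also differed between libraries of higher and lower mitochondrial share, within both genotypes. In KO, KO 3 minus the mean of KO 1 and KO 2 gave a median log2 difference of -0.33 over the 82 genes. In WT, the mean of WT 2 and WT 3 minus WT 1 gave -0.12. Over all tested genes these medians were 0.01 in KO and -0.01 in WT. The difference was negative in both genotypes in 55 of 82 subunit genes (67.1%), positive in both in 12 and of opposite sign in 15, while over all genes 41.6% were negative in both and 40.9% positive in both. The 3 libraries of higher share lay below the 3 of lower share in 33 of 82 genes, where 21.3% of all tested genes did, and above them in 2, Uqcrc2 and Atp5f1c, where 20.5% did. Each difference within a genotype has 1 library on one side, KO 3 in KO and WT 1 in WT. Summed over all 90 subunit genes, CPM did not fall with the share in WT. The sum was 14820, 15130 and 13550 in WT 1, 2 and 3, so WT 2, of the highest share, had the highest sum. In KO 1, 2 and 3 it was 14620, 15710 and 13530. The share was read from the same counts, so these values describe 6 libraries and were not tested.

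Cox6a1 had 195, 235 and 126 CPM in KO and 186, 128 and 136 CPM in WT. KO 3, WT 2 and WT 3, the libraries of higher share, were low and the other 3 high. Uqcrq had the same split, with 90.2, 104 and 57.3 CPM in KO and 93.1, 66.9 and 60.8 CPM in WT. So did Atp5f1d, the delta subunit of the central stalk of ATP synthase, with 166, 208 and 114 CPM in KO and 179, 120.1 and 127 CPM in WT, and Ndufs8, with 84.1, 93.9 and 55.3 CPM in KO and 94.8, 71.6 and 71.9 CPM in WT. The opposite order was seen in Uqcrc2, with 311, 320.1 and 365 CPM in KO and 328, 422 and 348 CPM in WT. Atp5f1c had 354, 361 and 408 CPM in KO and 362, 493 and 393 CPM in WT, again highest in libraries of higher share. For Atp5f1b the differences were small, at -0.05 in KO and 0.04 in WT on the log2 scale.

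By complex, the count negative in both genotypes was 27 of 38 for complex I, 3 of 4 for complex II, 6 of 8 for complex III, 9 of 14 for complex IV and 10 of 18 for complex V. Gene length moved with it. Of subunit genes up to their median length of 713.5 bases, 30 of 41 were negative in both, with medians of -0.41 in KO and -0.18 in WT. Of the longer ones 25 of 41 were, with medians of -0.19 in KO and -0.09 in WT. Over all tested genes 44.8% were negative in both up to that length and 41.5% above it. Their medians were -0.17 in KO and -0.02 in WT up to that length, and 0.01 in KO and -0.01 in WT above it. The part of length in the pattern was not tested.

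**Figure D4:**
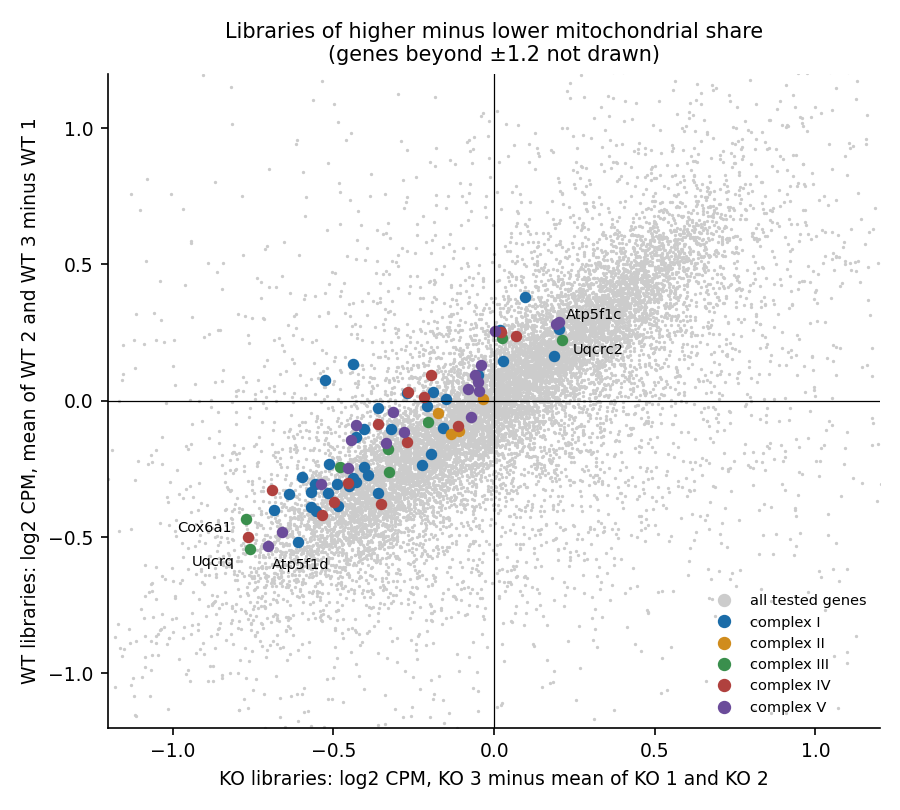
Log2 CPM of libraries of higher minus lower mitochondrial share, within KO (horizontal) and within WT (vertical), for subunit genes (coloured by complex) and all tested genes (grey). Most subunit genes lie at the lower left, Cox6a1, Uqcrq and Atp5f1d among them, while Uqcrc2 and Atp5f1c lie at the upper right.

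The 13 mitochondrially encoded subunit genes summed to 26160, 26120 and 45880 CPM in KO and 22780, 58610 and 34940 CPM in WT. They make up much of the mitochondrial share, so their split by it is no result. None was called between KO and WT by edgeR or DESeq2, and each had 1 at an unadjusted p under 0.05. The ratio of mitochondrial to nuclear subunit RNA, with complex II left out of the nuclear sum, was 1.97, 1.82 and 3.74 in KO and 1.69, 4.25 and 2.84 in WT. For complex IV it was 6.82, 5.86 and 13.8 in KO and 6.28, 15.7 and 10.9 in WT. Complex V did not follow that order, with 0.0517, 0.0339 and 0.0330 in KO and 0.0257, 0.0467 and 0.0475 in WT: KO 1, of lower share, had the highest ratio. Its 2 mitochondrial genes summed to only 211 to 340 CPM in KO and 175 to 338 CPM in WT. The 3 of complex IV summed to 13160 to 23290 CPM in KO and 12270 to 29720 CPM in WT. Why the complex V genes had so few counts was not tested, so their ratio is uncertain. Mitochondrial genes have copies in nuclear DNA, so single levels are uncertain.

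With the share class as a covariate edgeR called 0 subunit genes, where it called 11.1% of all genes. With the log2 share as a covariate it called 4 higher in KO and 0 lower, where it called 15.3% of all genes. The 4 are 4.88% of the tested subunit genes. Among them were Ndufs1 (log2 fold change 0.19, adjusted p = 0.0270), Atp5mj (0.32, adjusted p = 0.0374) and Sdhc (0.21, adjusted p = 0.0450).

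In the lists of genes that build, supply or regulate the complexes, edgeR called none without a covariate, where it called 3.43% of all genes. Its counts were 0 of 20 tested assembly factors for complex I, 0 of 4 for complex II, 0 of 6 for complex III, 0 of 23 for complex IV and 0 of 4 for complex V, and 0 of 18 regulators. DESeq2 called 0 in each of these lists too; at an unadjusted p under 0.05 edgeR had 0 assembly factors and 1 regulator, and DESeq2 1 assembly factor, of complex IV, and 1 regulator. Ppargc1a, the coactivator of mitochondrial biogenesis, had 61.2 ± 14.0 CPM in KO and 78.1 ± 14.1 CPM in WT. Nrf1, whose word was searched above, had 45.8 ± 6.36 CPM in KO and 46.9 ± 3.43 CPM in WT, Gabpa 69.2 ± 17.5 CPM in KO and 81.3 ± 17.1 CPM in WT and Yy1 127 ± 2.57 CPM in KO and 117 ± 3.61 CPM in WT. Of 18 citric acid cycle genes edgeR and DESeq2 called 0 (1 by edgeR and 2 by DESeq2 at an unadjusted p under 0.05), with a median log2 fold change of -0.10. Their sum was 6022 to 6357 CPM in KO and 6650 to 6749 CPM in WT, without overlap. Cs, citrate synthase, had 981, 970.2 and 1024 CPM in KO and 1067, 1121 and 1137 CPM in WT, again without overlap, and an edgeR adjusted p of 0.546. None of 18 tested genes of mitochondrial mass and import, and none of 4 tested subunit and cytochrome c genes outside the name rule, was called by either tool, and none had an unadjusted p under 0.05 in either. With the log2 share as a covariate edgeR called 8.24% of all tested genes higher in KO and 7.07% lower. In the lists that fit called 2 of 57 assembly factors higher (Tmem70 and Cox20), 2 of 18 regulators higher (Tfb2m and Esrrb) and 1 lower (Ppargc1a). It called 3 of 18 citric acid cycle genes lower (Pdha1 and Ogdh among them). Also higher were 1 of 18 genes of mass and import (Hspd1) and 1 of 13 mitochondrially encoded genes (mt-Nd1). With the share class edgeR called Tfb2m and Hspd1 higher and the assembly factor Higd1a lower, where it called 11.1% of all genes. These genes were named after their values were seen, and the regulators with levels above and Cs were picked for their roles likewise.

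The HIF target list held 5 genes called lower in KO and 0 called higher among 11 tested by edgeR, where 3.43% of all genes were called, with a median log2 fold change of -0.75; the drop of several of them was known when the list was made. Cox4i2 and Ndufa4l2 are on this list too and were below the count filter. The 5 were Car9, Ndrg1, Bnip3, Ldha and Pdk1. Pdk1, the kinase that holds pyruvate back from the citric acid cycle, had 40.7, 23.2 and 36.6 CPM in KO and 69.7, 61.6 and 64.0 CPM in WT. Every KO library lay below every WT library, with a log2 fold change of -0.96 (SE 0.20) and an edgeR adjusted p of 0.0422. Car9, a carbonic anhydrase, had 0.148, 0.291 and 0.156 CPM in KO and 3.67, 1.44 and 1.62 CPM in WT (adjusted p = 0.0112, edgeR).

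The CUT&Tag signal was read at the promoters of the same genes. KO libraries held 4038765 and 3369232 reads in the 69418 merged regions, and WT libraries 3125267 and 2913959. The authors assigned 104 regions to 62 subunit genes. Of these, 62 regions of 52 genes were annotated as promoter, and 47 regions of 46 genes touch a transcription start site (TSS) by the deposited distance. The median promoter region held 61 and 50 reads in KO 1 and KO 2 and 47.5 and 44.5 in WT 1 and WT 2, so single regions carry a large counting error. The authors called peaks in all 4 libraries for 13 of the 62 regions, in 3 for 16, in 2 for 11 and in 1 for 22. Of subunit genes tested in RNA, 59.8% had a promoter region, and of all genes tested in RNA 60.0% had one.

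No promoter region of a subunit gene was called different. edgeR called 0 of 62 and DESeq2 0, where edgeR called 0.00722% of all 69209 tested regions. At an unadjusted p under 0.05 edgeR had 1 higher and 6 lower in KO where edgeR had 5.35% of all regions, and 1.23% higher and 5.79% lower among all promoter regions. DESeq2 had 2 of 62 (3.23%) at that threshold, beside 2.45% of all regions and 3.01% of all promoter regions. Summed CPM over the 62 regions was 942.7 and 911.4 in KO and 1015 and 1022 in WT, so both KO libraries lay below both WT libraries. Sums over all promoter regions had the same order, with 364100 and 371300 CPM in KO and 381100 and 385300 CPM in WT, and so had sums over promoters of genes tested in RNA, with 219000 and 222900 CPM in KO and 237800 and 243600 CPM in WT. The log2 fold change was below 0 in 42 of 62 regions (67.7%), with a median of -0.09. Over all promoter regions 57.5% were below 0, with a median of -0.07, and over promoters of genes tested in RNA 62.7%, with a median of -0.11. No spike-in values were at hand, so a change common to all regions cannot be measured. In the authors' deposited table every region has a q-value of 1, and 2 of the 62 promoter regions (3.23%) have a p under 0.05, beside 2.34% of all 69418 regions.

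The TSS region of Atp5mc2, at chr15:102579187-102579709 (GRCm39, as all CUT&Tag coordinates; the printed windows are on an older build), had the smallest p. It measured 16.1 and 17.2 CPM in KO and 23.9 and 28.0 CPM in WT. Both KO libraries lay below both WT libraries, with a log2 fold change of -0.64 (SE 0.25), an unadjusted p of 0.0111 and an edgeR adjusted p of 0.857. That order was common, in 20 of the 62 regions and in 5039 of all 21161 tested promoter regions. Among promoter regions of genes tested in RNA it held in 3786 of 13703. The reverse order held in 7 of the 62, in 2784 of all and in 1480 of those of genes tested in RNA. The TSS region of Uqcrc1 (chr9:108765600-108765871) had 14.4 and 11.6 CPM in KO and 21.4 and 20.1 CPM in WT, again without overlap, and a log2 fold change of -0.67 (SE 0.29); values with an SE that follow are on the same scale. Its second region (chr9:108772280-108773019) has a deposited distance of 1090 bases. Both Uqcrc1 regions lie farther apart than that, so the distance counts from another TSS than the one in the first region. The second region had the highest mean of the 62, with 37.1 and 32.9 CPM in KO and 29.1 and 34.6 CPM in WT. Its groups overlapped, at 0.14 (SE 0.20).

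The Ndufs1 TSS region (chr1:63186425-63186801) had 13.4 and 7.71 CPM in KO and 7.12 and 4.15 CPM in WT, from 12 to 55 reads. KO 1 lay above the rest and KO 2 was close to WT 1, at 0.91 (SE 0.46), with an edgeR adjusted p of 0.932. Further lower regions at an unadjusted p under 0.05, named after their values were seen, were those at the TSS of Ndufb10, at -0.62 (SE 0.27), Cox4i1, at -0.75 (SE 0.35), and Ndufb11, at -0.94 (SE 0.45).

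Of the other regions with a high mean, Ndufb5 (chr3:32790590-32791300) had 37.6 and 24.6 CPM in KO and 32.0 and 32.9 CPM in WT, at -0.05 (SE 0.21). Cox8a (chr19:7194626-7195268) had 25.1 and 31.4 CPM in KO and 34.9 and 29.4 CPM in WT, at -0.19 (SE 0.21). Both pairs of groups overlapped. On the positive side, Ndufb8 at its TSS (chr19:44543193-44543744) had 19.3 and 16.9 CPM in KO and 18.1 and 7.96 CPM in WT. Another Ndufb5 region (chr3:32799292-32799497) had 9.03 and 3.26 CPM in KO and 3.23 and 2.77 CPM in WT. Its deposited distance of 387 bases likewise counts from another TSS than the one in the Ndufb5 region above. In this region and that of Ndufb8, 1 library of a group stood apart. Of the genes with printed windows, the TSS region of Ndufs8 had 21.5 and 20.4 CPM in KO and 27.5 and 25.95 CPM in WT, with KO below WT, and that of Sdhb 23.9 and 16.6 CPM in KO and 22.0 and 24.2 CPM in WT, with overlap. Cox6a1 and Uqcr11 have no region annotated as promoter here.

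**Figure D5:**
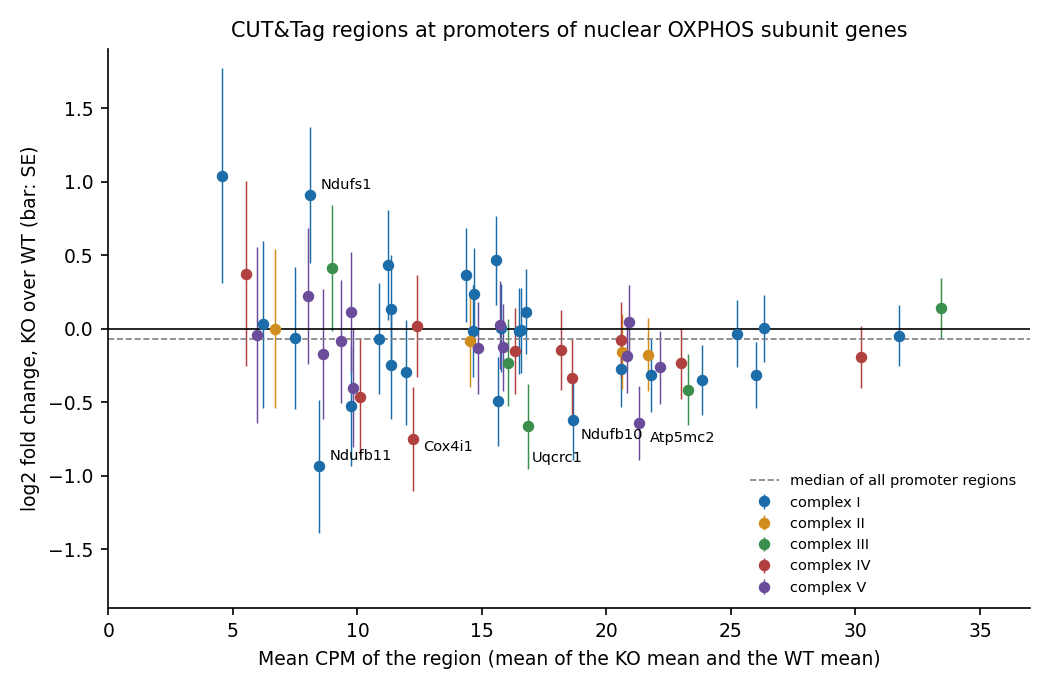
edgeR log2 fold change, KO over WT, with its SE (bar) against mean CPM for CUT&Tag regions at promoters of subunit genes, coloured by complex; named points have an unadjusted p under 0.05 and the dashed line is the median of all promoter regions, -0.07. Most points lie below 0, and the bars are widest at low CPM.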

How the data were processed

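RNA libraries were poly(A) selected with a stranded kit, per the labels' protocols. HISAT2, StringTie and the build GRCm39 appear in the submitters' processing notes, with no versions. Not given in the sources used here: counter, strand setting, annotation, peak caller and CUT&Tag antibody. The deposited RNA table holds expected counts per gene, unscaled, which were rounded to whole numbers. For CUT&Tag, the authors deposited counts per region merged over the libraries, RPM (not used), a log2 fold change (not used), and a p-value and q-value from a test they do not name.

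Each table was fitted whole with edgeR 4.0.16 (R 4.3.3; TMM, filterByExpr with a minimum count of 10, robust glmQLFit, glmQLFTest), KO against WT, with Benjamini-Hochberg adjustment over 15298 genes or 69209 regions and a threshold of 0.05. DESeq2 1.42.0 was an alternative. CPM use TMM-scaled library sizes, and for CUT&Tag reads in regions. Intervals are 95% and use the fit's degrees of freedom. The code was tested on simulated data. Libraries were classed at 3% mitochondrial counts. Members whose RefSeq entry is a pseudogene (3 of 93 symbols matched) were left out; 525 genes have no symbol. CUT&Tag regions were matched by gene ID. The listed symbols Coa1 and Phb1 had no match.

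The members, lists, classes and rules were chosen with earlier results of these data known. Named were Riox2, called genes, the 3 highest per kb and the 2 most positive and 2 most negative fold changes in each complex, isoform pairs, catalytic subunits, the 3 promoter regions of smallest p in each direction and the 3 strongest; those named for the share pattern were chosen after their values were seen. The values of 1 subunit gene and 1 gene of the pathway lists are not reported here, and the plots of single genes and regions leave them out, though both stay in the counts, medians and sums.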

Additional observations from a re-analysis of the deposited data

How the results depend on the processing

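The count of subunit genes called lower in KO stayed 0 and that called higher 0 in every alternative run except the log2 mitochondrial share as a covariate, with 4 higher. Over all genes edgeR called 525, DESeq2 958, the fit with the class as a covariate 1695, that with the log2 share 2341, and fits leaving out each library in turn 145 (WT 3) to 506 (KO 3), with 179 without KO 1, 179 without KO 2 and 313 without WT 2. The median log2 fold change of the subunit genes, 0.06, ran from -0.04 without KO 2 to 0.15 without KO 3. For CUT&Tag 5 regions were called, 1 to 15 with each library left out (1 without KO 1, 2 without KO 2, 3 without WT 1, 15 without WT 2), and 0 subunit promoter regions in every alternative; the promoter median of -0.09 was -0.060 with library totals, -0.13 within 1 kb of the TSS and -0.16 (without WT 1) to -0.061 (without WT 2) with a library left out, which leaves a lone library assumed to vary like the other group. Of 674 values of named genes and regions under alternatives, 670 kept their side of the threshold, 4 came to pass it and 46 changed sign with neither value passing. Deviations of same-numbered RNA libraries correlated at r = 0.46, -0.37 and 0.27 for numbers 1, 2 and 3, and of CUT&Tag libraries at 0.02; not every number correlated positively, and the RNA signs follow the mitochondrial-share classes, so these values do not settle whether the numbers pair the libraries and they were treated as unpaired. The replicate block gave 229 genes, 0 subunit genes, 9 regions and a promoter median of -0.10. Apart from the stated settings, the cause of these moves was not tested. Depth limits the CUT&Tag values, at 8 to 154 reads per promoter region.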
